A study of Mus musculus with 4 samples.

Results

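The genes described here are 10 markers of theca and stroma other than collagens, Dcn, Lum, Bgn, Ogn, Fn1, Fbn1, Postn, Pdgfra, Acta2 and Tagln. They were chosen by symbol from the 55385 genes of the count table, by a rule that uses no measured value but with earlier results of these data known, and each symbol matched 1 Ensembl identifier. RNA had been sequenced from granulosa cells (GCs) of Kunming mouse ovaries, isolated from preantral follicles that were dissected mechanically and grown in vitro for 6 days. For the 2 NT4 libraries the medium held neurotrophin-4 (NT-4), a ligand of the receptor TRKB, and for the 2 Control libraries it did not. All follicles of both groups were cultured in medium with FSH, insulin, transferrin, fetuin and albumin. The mice were prepubertal, and the study says that the GC samples of a group came from independent experiments. How many follicles or mice a library pools was not given in the sources used here. The comparison asked whether NT-4 in the medium altered these genes and whether they moved together from library to library.

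A growing follicle is enclosed by a basement membrane, with GCs and the oocyte inside and theca and stroma outside. Theca and stroma cells lay down most of the interstitial matrix of the ovary, and the cells of the outer theca are contractile. Decorin (Dcn), lumican (Lum), biglycan (Bgn) and osteoglycin (Ogn) are small leucine-rich proteoglycans, which bind collagen fibrils and growth factors. Fibronectin (Fn1), fibrillin-1 (Fbn1) and periostin (Postn) are large matrix proteins. Pdgfra is a receptor for platelet-derived growth factors that marks mesenchymal cells, and Acta2 and Tagln encode the smooth muscle actin and its partner transgelin. GCs can themselves make some of these proteins, fibronectin among them, so no single gene of the 10 is proof of a theca cell.

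Total counts ranged from 49520092 to 78704020 per library. Low counts piled up at multiples of 4, so that 4 counts were taken as about 1 read pair, or 12380023 to 19676005 read pairs per library. Values below are CPM, counts per 1000000 counts of a library scaled by edgeR's TMM factors, and the value of replicate 1 always comes first. For a gene at 0 a level of 3 read pairs cannot be told from 0, a floor of 0.152 to 0.242 CPM depending on the library that covers counting error only. All 14 granulosa markers of a list of such genes were detected, the least abundant at a mean of 57.2 CPM, as the labelled cell type requires. The libraries also held all 10 oocyte markers, at means of 3.78 to 27.4 CPM. Markers of macrophages, endothelium, surface epithelium and erythroid cells were low apart from Cdh5, Krt8 and Krt18. Those of theca and stroma are given below. Summed over 8 genes, macrophage markers reached 2.28 to 4.22 CPM, with Ptprc at 0 in 3 libraries, and the 8 endothelial markers reached 19.6 to 28.8 CPM, of which Cdh5 gave 16.4 to 25.4 CPM. Of the 8 surface epithelium markers, Upk1b and Krt19 were at 0 in all libraries, and 6 erythroid markers summed to 3.23 to 5.60 CPM. The summed level of each of these lists but the granulosa one was lowest in Control 2. In bulk libraries, more cells of a type and more RNA per cell cannot be told apart.

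All 10 genes were detected in all 4 libraries and passed the filter on low counts. By abundance per length, the contractile genes stood first. On the scale of CPM per kilobase of exons, the mean level over the libraries was 119.8 for Acta2 and 57.1 for Tagln. Biglycan followed at 25.2, fibronectin at 23.9 and osteoglycin at 15.2. Fibrillin-1 (10.6) and decorin (9.91) were next and changed places when the longest transcript replaced the union of exons as length (10.7 and 12.3). Lumican was at 6.34, Pdgfra at 3.66 and periostin at 0.203. In the order of these levels, Bgn and Fn1 were neighbours whose libraries overlapped, at 21.6 to 34.5 and 19.3 to 27.8 CPM per kilobase, as were Fbn1 (9.28 to 12.6) and Dcn (8.16 to 11.5). By the longest transcript Bgn, at 49.5 to 78.8, lay above Fn1, at 27.2 to 39.02, without overlap. The mean CPM of Fn1 exceeded that of 97.1% of the 19259 genes tested and the mean CPM of Acta2 that of 96.8%, while Postn exceeded 31.0%.

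Promoter windows (250 bases before to 50 after an annotated start of a gene, RefSeq, GRCm38.p6) were found for 6 of the 10 genes. The windows of Acta2, Ogn and Pdgfra are shown because both NT4 libraries lay above both Control libraries for these genes, and that of Bgn because 1 NT4 library alone was high. Capitals mark 4 motifs, searched on both strands. The first is a CArG-like box, the form bound by serum response factor, taken here as a pair of C, then 6 letters of which at least 5 are A or T, then a pair of G. The TATA motif was searched as TATAA. The MCAT motif, known from muscle genes, was searched as CATTCC. The GC box was searched as GGGCGG, and each window runs 5′ to 3′ on the strand of its gene.
Acta2, chr19:34255324-34255623, minus strand: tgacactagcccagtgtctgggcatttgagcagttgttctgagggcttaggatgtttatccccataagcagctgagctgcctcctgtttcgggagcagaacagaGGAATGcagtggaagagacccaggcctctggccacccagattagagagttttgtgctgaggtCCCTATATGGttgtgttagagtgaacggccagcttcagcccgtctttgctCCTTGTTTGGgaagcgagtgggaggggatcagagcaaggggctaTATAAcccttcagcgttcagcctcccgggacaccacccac
Ogn, chr13:49607765-49608064, plus strand: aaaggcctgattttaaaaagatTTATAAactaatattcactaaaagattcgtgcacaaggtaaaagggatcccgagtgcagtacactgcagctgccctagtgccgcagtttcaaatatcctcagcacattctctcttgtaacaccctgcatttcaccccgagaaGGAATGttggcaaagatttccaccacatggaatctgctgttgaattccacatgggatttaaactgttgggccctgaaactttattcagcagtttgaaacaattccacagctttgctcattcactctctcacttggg
Pdgfra, chr5:75152001-75152300, plus strand: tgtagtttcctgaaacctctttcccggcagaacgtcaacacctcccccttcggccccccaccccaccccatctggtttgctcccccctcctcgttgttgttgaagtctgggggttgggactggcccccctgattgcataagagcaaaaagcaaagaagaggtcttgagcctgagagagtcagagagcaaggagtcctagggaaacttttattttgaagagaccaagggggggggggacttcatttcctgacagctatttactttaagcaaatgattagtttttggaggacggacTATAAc
Bgn, chrX:73483351-73483650, plus strand: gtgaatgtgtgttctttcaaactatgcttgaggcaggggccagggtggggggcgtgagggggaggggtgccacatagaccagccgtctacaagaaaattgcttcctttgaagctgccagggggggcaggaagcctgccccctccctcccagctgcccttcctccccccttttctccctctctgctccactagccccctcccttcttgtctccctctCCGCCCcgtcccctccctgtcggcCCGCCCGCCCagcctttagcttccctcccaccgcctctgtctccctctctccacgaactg
The Acta2 window held 2 CArG-like boxes, at bases 167 to 176 and 217 to 226 counted from 1 at the 5′ end, and a TATA motif at bases 261 to 265. It also held the MCAT motif on the other strand, at bases 105 to 110. Of all 32851 windows, 9.98% held a CArG-like box, 24.9% the TATA motif, 14.7% the MCAT motif and 35.7% the GC box. Acta2 was the single gene of the 6 with a CArG-like box. Ogn had the MCAT and the TATA motif, the latter in both directions at overlapping positions (bases 23 to 28). Pdgfra held a TATA motif at bases 295 to 299 and Postn one at bases 225 to 229 of 1 of its windows. Bgn and Fbn1 held the GC box and none of the other motifs, and 2 of the 3 GC boxes of Bgn overlapped. A match describes the letters of the window and was not tested as a binding site.

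Among the proteoglycans, decorin, lumican and osteoglycin had both NT4 libraries above both Control libraries, and biglycan did not. Dcn (ENSMUSG00000019929, GRCm38 chromosome 10, 97479609 to 97518143), a decoy for TGF-β and a spacer of collagen fibrils, had 52.6 and 47.6 CPM in the Control pair and 64.2 and 67.1 CPM in the NT4 pair. The Control libraries were alike, the NT4 libraries were alike, and the gap between groups was wider than either spread. The log2 fold change of NT4 over Control was 0.39 (SE 0.13, 95% interval 0.066 to 0.71), and edgeR's quasi-likelihood test gave an unadjusted p of 0.0267 and an adjusted p of 0.9999. Lum (ENSMUSG00000036446, chromosome 10, 97565128 to 97572703), a regulator of fibril diameter, had 14.0 and 10.2 CPM in the Control pair and 21.8 and 16.1 CPM in the NT4 pair. It had the widest range of the 10 genes, 2.15-fold from its lowest to its highest library, and Control 1 and NT4 2 were near each other. Its log2 fold change was 0.65 (SE 0.25, 95% interval 0.023 to 1.28), and edgeR gave an unadjusted p of 0.0444 and an adjusted p of 0.9999. Leaving out NT4 1 lowered it to 0.40 and leaving out Control 1 raised it to 0.89. The unadjusted p of Lum was 0.0569 with library totals in place of TMM and 0.0515 with a filter of 1 CPM in edgeR's test.

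Ogn (ENSMUSG00000021390, chromosome 13, 49608046 to 49624501), which takes part in fibril formation, had 39.03 and 30.9 CPM in the Control pair and 41.2 and 44.8 CPM in the NT4 pair. The groups were separated by the low value of Control 2 more than by the NT4 libraries, since Control 1 lay just under NT4 1. The log2 fold change was 0.30 (SE 0.17), 0.14 without Control 2 and 0.47 without Control 1. Bgn (ENSMUSG00000031375, chromosome X, 73483602 to 73495933), a relative of decorin, had 136.5 and 131.9 CPM in the Control pair and 210.1 and 135.9 CPM in the NT4 pair. A single library, NT4 1, stood above the other 3, which agreed closely. The log2 fold change of Bgn was 0.37 (SE 0.22), 0.012 without NT4 1 and 0.65 without NT4 2. In edgeR's test the adjusted p was 0.9999 for Ogn and Bgn as well.

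Dcn and Lum lie side by side on the plus strand of chromosome 10, followed by Kera (97606879 to 97613692) and Epyc (97644068 to 97682454). Both of these neighbours, keratocan and epiphycan, were at 0 counts in each of the 4 libraries, that is, at or under the floor of 0.152 to 0.242 CPM. The 4 genes of the chromosome 13 cluster were all detected. Omd, the gene next to Ogn, had 50.4 and 38.2 CPM in the Control pair and 54.5 and 37.3 CPM in the NT4 pair, so that it was high in both libraries numbered 1 and its groups overlapped. Ecm2 was at 7.97, 5.95, 9.35 and 5.18 CPM in the same order, again higher in the libraries numbered 1, and Aspn at 1.37, 0.50, 1.56 and 1.57 CPM. Omd and Ecm2 thus ranked the libraries otherwise than Ogn, while Aspn, on 37 to 121 counts, ranked them as Ogn did and its groups did not overlap.

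The large matrix proteins showed overlapping groups. Fn1 (ENSMUSG00000026193, chromosome 1, 71585520 to 71653200), the cell-binding glycoprotein that scaffolds new matrix, had 226.0 and 284.7 CPM in the Control pair and 324.5 and 281.8 CPM in the NT4 pair. Control 2 and NT4 2 were level, and the log2 fold change of 0.25 (SE 0.16) became 0.086 without Control 1, 0.14 without NT4 1 and 0.43 without Control 2. Fbn1 (ENSMUSG00000027204, chromosome 2, 125300594 to 125507993), the main protein of microfibrils, had 112.6 and 130.9 CPM in the Control pair and 152.8 and 118.2 CPM in the NT4 pair. Its log2 fold change of 0.15 (SE 0.17) was smaller than its error, and it was −0.050 without NT4 1 and 0.045 without Control 1. Postn (ENSMUSG00000027750, chromosome 3, 54361109 to 54391037), a matricellular protein, was the least abundant, with 2.09 and 1.48 CPM in the Control pair and 2.25 and 1.25 CPM in the NT4 pair. These values rest on 96 to 140 counts per library. Postn was higher in the libraries numbered 1 of both groups. Its log2 fold change of −0.03 had a 95% interval of −1.12 to 1.05, which includes differences of up to about 2-fold in either direction. It was 0.23 without Control 1 and 0.33 without NT4 2. The adjusted p in edgeR's test was 0.9999 for these 3 genes.

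The receptor and the contractile genes had separate groups. Pdgfra (ENSMUSG00000029231, chromosome 5, 75152292 to 75198215), a receptor tyrosine kinase, had 33.8 and 32.4 CPM in the Control pair and 43.3 and 37.1 CPM in the NT4 pair. The Control libraries were close together, and the log2 fold change was 0.28 (SE 0.15, 95% interval −0.098 to 0.65), or 0.16 without NT4 1. Acta2 (ENSMUSG00000035783, chromosome 19, 34241090 to 34255590), a marker of smooth muscle and of the outer theca, had 234.8 and 211.8 CPM in the Control pair and 310.4 and 295.6 CPM in the NT4 pair. Control had a mean of 223.3 ± 16.3 CPM and NT4 one of 303.0 ± 10.5 CPM (SD, n = 2 each), further apart than either SD. The log2 fold change was 0.44 (SE 0.12, 95% interval 0.14 to 0.74), with the smallest unadjusted p of the 10 genes, 0.0125 (0.9999 adjusted), in edgeR's test. It stayed between 0.37 and 0.51 with any 1 library left out. Tagln (ENSMUSG00000032085, chromosome 9, 45929619 to 45936058), an actin-binding protein of smooth muscle, had 111.5 and 96.1 CPM in the Control pair and 129.0 and 117.6 CPM in the NT4 pair. Its NT4 2 library lay just above Control 1, and the log2 fold change was 0.25 (SE 0.13), or 0.15 without Control 2. The adjusted p was 0.9999 for Pdgfra and Tagln.

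Reads could be shared for a few of these genes. Exons of Tagln overlap 1241 bases of Gm48529 and 108 bases of Pcsk7 on the opposite strand, and whether counting used strand is not stated. Gm48529 was at 4.95 to 7.97 CPM and Pcsk7 at 23.3 to 32.2 CPM over all their exons. How many reads either shares with Tagln cannot be read from these values. Genes with exons that overlap Fn1, Fbn1 and Pdgfra had at most 20 counts. Acta2 shares much of its coding sequence with other actin genes, among which the counting could split reads. Of these, Actg2 was at 12.3 to 17.8 CPM and Acta1 and Actc1 at or under 0.85 CPM, while the cytoplasmic actins Actb and Actg1 had log2 fold changes of −0.00 (SE 0.13) and 0.02 (SE 0.15).

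**Figure D1:**
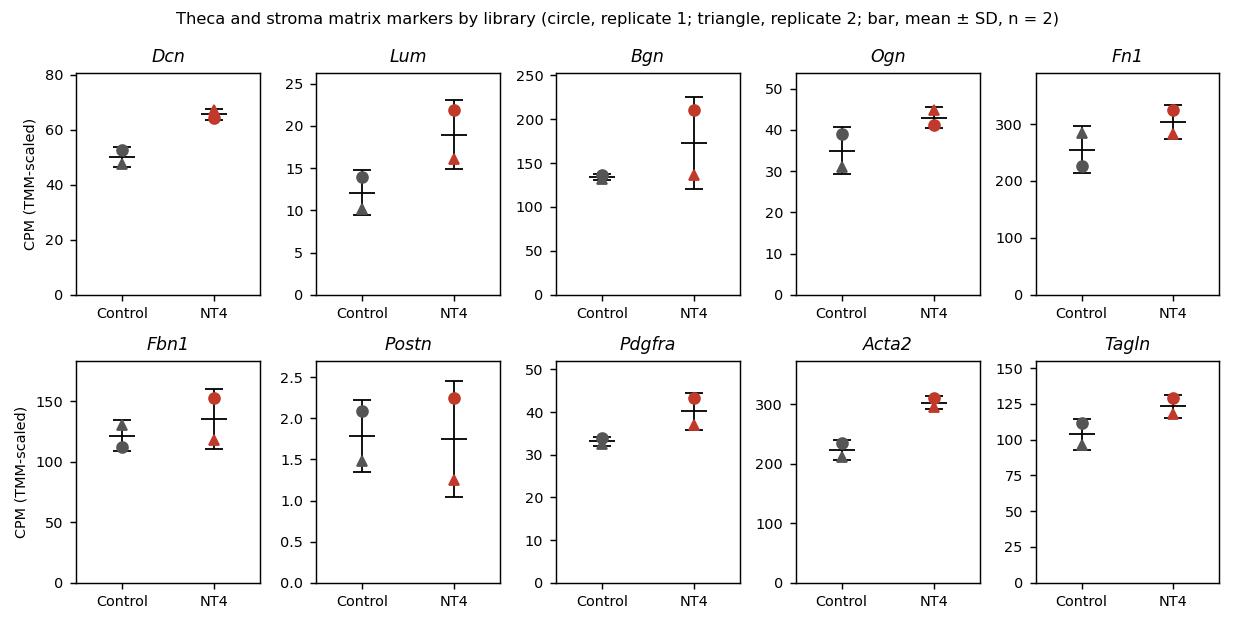
CPM of each of the 10 genes in the 4 libraries, with replicate 1 as circles, replicate 2 as triangles and bars for the mean ± SD of 2 libraries (each y axis starts at 0). In 6 genes, Dcn, Lum, Ogn, Pdgfra, Acta2 and Tagln, both NT4 libraries lie above both Control libraries, and in Bgn NT4 1 alone is high.

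Counted over the genes, 0 of 10 passed an adjusted p of 0.05 in edgeR's quasi-likelihood test, against 0 of all 19259 genes tested (0.0%). DESeq2 called 65 genes in all and limma voom 0, and neither called any of the 10. At an unadjusted p under 0.05 there were 3 of the 10 in edgeR's test, Dcn, Lum and Acta2, each higher in NT4, where 1.99% of all genes had such a p and 1.05% had it while higher in NT4. The same 3 genes had an unadjusted p under 0.05 in DESeq2 and in limma voom. None of them was left without Control 2 (3.23% of all genes had such a p there). Acta2 and Lum were left without Control 1 (2.71% of all genes) and Acta2 and Dcn without NT4 1 (4.24%), while Bgn, Acta2 and Lum had such a p without NT4 2 (3.63%). By the criterion of the study (a fold change above 2 or under 0.5 and an unadjusted p under 0.05), 0 of the 10 passed, against 1.08% of all genes. With 2 libraries against 2, which can be split in 3 ways, edgeR's p-values lean on a spread estimated from many genes. The 10 genes were read in the same libraries and are not independent of each other.

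The directions leaned one way. The log2 fold change was above 0 in 9 of the 10 genes, Postn being the exception, against 51.0% of all genes tested. The median of the 10 was 0.29, against 0.0045 for all genes tested, and it was 0.17 without NT4 1, the library whose absence moved it most. Both NT4 libraries lay above both Control libraries in 6 of the 10, against 13.4% of all genes, and both lay below in 0 of the 10, against 12.7%. With the background limited to mean levels of 10 CPM or more, which leaves out Postn, the shares were 11.7% above and 10.4% below. No set test was run, and these shares describe the 4 libraries.

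**Figure D2:**
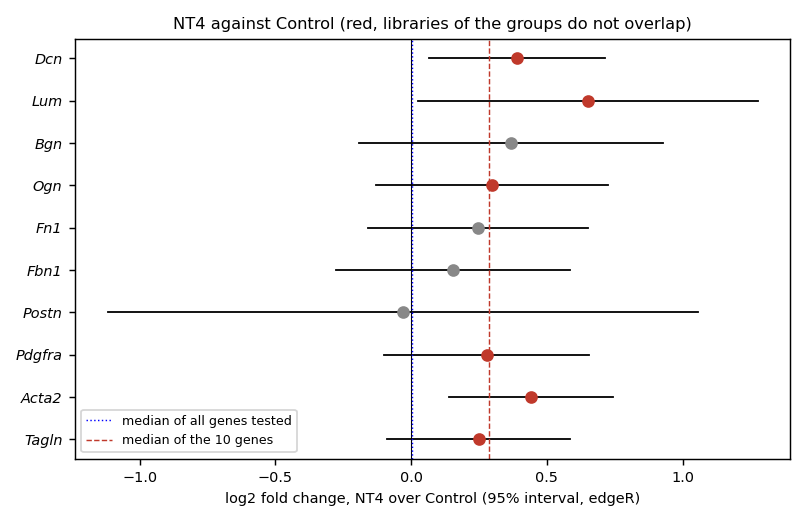
Log2 fold change of NT4 over Control for the 10 genes with 95% intervals from edgeR; red points mark genes whose 2 groups do not overlap, the dotted line the median of all genes tested (0.0045) and the dashed line the median of the 10 genes (0.29). The intervals of Dcn, Lum and Acta2 lie above 0 and the other 7 cross it.

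The genes varied together by library to a degree, with NT4 1 high and Control 2 low. Every one of the 10 had its highest value in an NT4 library, 8 in NT4 1 and 2 (Dcn and Ogn) in NT4 2. Of all genes tested, 26.5% were highest in NT4 1 and 29.3% in NT4 2, and none of the 10 was highest in Control 1 (23.4%) or Control 2 (20.8%). The lowest value fell in Control 2 for 7 of the 10, against 22.3% of all genes. The exceptions were Fn1 and Fbn1, lowest in Control 1 (23.8% of all genes), and Postn, lowest in NT4 2 (27.5%), while none was lowest in NT4 1 (26.3%). Among genes of 10 CPM or more, 24.8% were highest in NT4 1 and 18.4% lowest in Control 2, against 7 of the 9 markers in both cases. Highest in NT4 1 and lowest in Control 2 at once were 5 of the 10, against 8.76% of all genes.

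Compared library by library, all 10 genes were higher in NT4 1 than in Control 1 and than in Control 2, where 50.2% and 50.3% of all genes were. In NT4 2, 8 of the 10 were higher than in Control 1 (50.0% of all genes) and 7 higher than in Control 2 (51.3% of all genes). The libraries within a group also differed, with 8 of the 10 higher in Control 1 than in Control 2 (49.9% of all genes) and 8 higher in NT4 1 than in NT4 2 (49.1% of all genes). Set against its own mean log2 CPM, the median gene of the 10 was at 0.25 in NT4 1, 0.042 in NT4 2, −0.12 in Control 1 and −0.22 in Control 2. The same median over all genes tested lay between 0.0058 and 0.015 in every library. Between replicates of a group, the median of the 10 genes had an SD of 0.12 on the log2 scale, pooled over both groups.

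The 10 genes did not share 1 profile. The distance of each gene from the mean profile of the 10 (root mean square over the 4 libraries, on the log2 scale) was 0.034 for Pdgfra, 0.061 for Tagln and 0.10 for Acta2, which were closest. It was 0.22 for Lum, whose swing was wider, and 0.30 for Postn, which was low in NT4 2. Of the 8 genes higher in NT4 1 than in NT4 2, Postn differed by 0.84, Bgn by 0.63, Lum by 0.44 and Fbn1 by 0.37 on the log2 scale and the other 4 by 0.070 to 0.22, and Dcn and Ogn were slightly higher in NT4 2. Fn1 and Fbn1 alone of the 10 were lower in Control 1 than in Control 2, with log2 differences of −0.33 and −0.22.

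**Figure D3:**
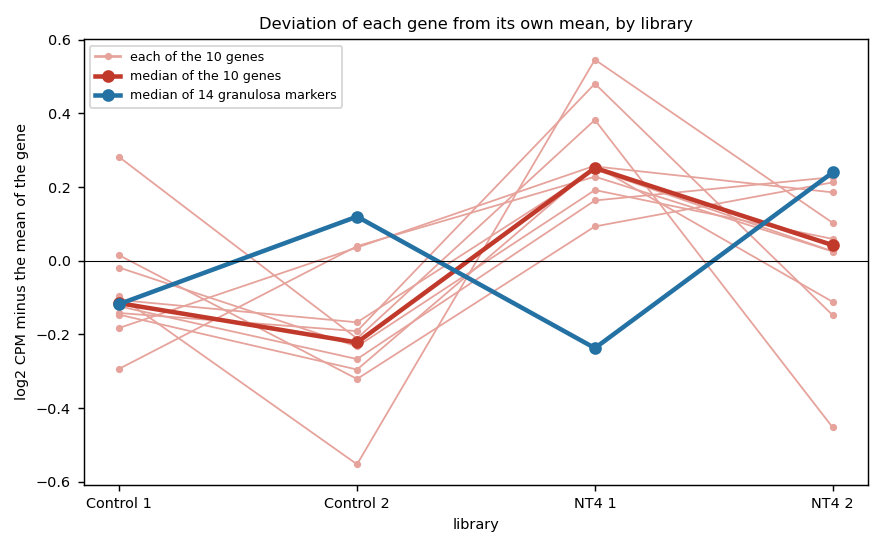
Log2 CPM minus the mean of the gene in each library for the 10 genes (thin lines), with the median of the 10 and the median of 14 granulosa markers; lines join the values of a gene, and the libraries of a group have no order. All 10 genes lie above 0 in NT4 1, where the granulosa median is lowest (−0.24).

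Granulosa markers had another pattern over the libraries. Their median deviation was −0.12 and 0.12 in the Control pair and −0.24 and 0.24 in the NT4 pair, which separates the libraries numbered 1 from those numbered 2 and not the groups. Inhbb, the βB subunit of activin and inhibin, was at 1510 and 2689 CPM in Control and 1047 and 3224 CPM in NT4, while Amh, made by GCs of small follicles, ran the other way (299.2, 151.2, 390.7 and 91.5 CPM). Among the 14 granulosa markers, both NT4 libraries were above both Control libraries in 0 (13.4% of all genes) and below in 0 (12.7%). In NT4 1, therefore, the median of the matrix markers was at its highest and that of the granulosa markers at its lowest, although 3 of the 14 granulosa markers were highest there. In NT4 2 both medians were above 0. The median deviation of the 10 oocyte markers was 0.24, −0.22, 0.00035 and −0.032 in the same order, so that they too were lowest in Control 2. Whether these shifts had a part in the values of the 10 genes was not tested.

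The rest of the matrix was read from lists that exclude the 10 genes. Of 12 other small leucine-rich proteoglycans, 9 were tested, 7 were higher and 2 lower in NT4 by direction, and the median log2 fold change was 0.41. That median is the value of Chad (SE 0.84), a gene near the floor, with a mean of 0.22 CPM on 8 to 24 counts. The 3 most abundant were Omd (log2 fold change 0.05, SE 0.24), Tsku, a secreted signalling regulator (1.05, SE 0.73), and Prelp (0.74, SE 0.25). Prelp was at 6.59 and 5.94 CPM in Control and 12.4 and 8.51 CPM in NT4. It was the single gene of this list with an unadjusted p under 0.05 in edgeR's test (unadjusted p 0.0287, against 1.99% of all genes under 0.05). Its log2 fold change was 0.44 without NT4 1, and the unadjusted p in edgeR's test was then 0.131, against 0.0999 without Control 2 and 0.0612 without Control 1. Without NT4 2 the log2 fold change was 0.98 and the unadjusted p in edgeR's test 0.0095. Tsku turned on Control 1, at 2.73 CPM against 14.8 to 21.2 CPM in the other libraries, and was 0.29 without it and 2.75 without Control 2, the one fit in which it passed the adjustment (adjusted p 0.0297).

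The 21 genes of microfibrils and elastic fibres, the partners of fibrillin-1, were all tested and had a median of 0.15, 14 higher and 7 lower. The groups of Fbn2, a relative of Fbn1, overlapped (−0.18, SE 0.18), and Fbln1 (−0.07, SE 0.11) and Ltbp3 (0.07, SE 0.18) differed by less than their SE. Of 15 matricellular genes, 14 were tested, 11 higher and 3 lower, with a median of 0.20. Thbs1, thrombospondin-1, was by far the most abundant at 2364, 2334, 2239 and 1852 CPM, with a log2 fold change of −0.20 (SE 0.12) that was −0.35 without NT4 1 and −0.070 without NT4 2. Sparc was higher in both NT4 libraries (0.22, SE 0.12, and 0.12 without NT4 1) and Ccn2 was level (0.02, SE 0.24). Thbs2 was the single matricellular gene with an unadjusted p under 0.05 in edgeR's test (1.99% of all genes), with a log2 fold change of 0.48 (SE 0.15). Both NT4 libraries were above both Control libraries in 4 of the 9 proteoglycans, 7 of the 21 microfibril genes and 3 of the 14 matricellular genes (13.4% of all genes), and below in 1 of each list (12.7%). The matricellular gene with both below was Thbs1, the most abundant of its list. No gene of these lists passed the adjusted threshold of 0.05 in edgeR's test with all libraries and the default filter.

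Lists of partners of the receptor and adhesion genes had medians near 0. Of 11 fibronectin receptor genes, 10 were tested, 8 higher and 2 lower in NT4 with a median of 0.07, and 7 were highest in NT4 1. The 3 most abundant were Itgb1 (0.08, SE 0.16), Itgb5 (0.07, SE 0.11) and Itgav (−0.19, SE 0.17). Itgav was −0.41 without NT4 1 and −0.0017 without NT4 2, and Itgb5 was 0.11 and 0.025 in these fits. The 6 genes of PDGF ligands and receptors had a median of 0.07, 3 higher and 3 lower, and both NT4 libraries lay above both Control libraries in 0 of the 6 (13.4% of all genes) and below in 1, Pdgfa (12.7%). Pdgfc (−0.05, SE 0.26) and Pdgfb (−0.03, SE 0.33), which encode ligands, and Pdgfrl (0.17, SE 0.26) differed by less than their SE. The sister receptor Pdgfrb was at 11.9 and 6.79 CPM in Control and 16.6 and 10.5 CPM in NT4, with overlapping groups.

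Contractile genes lay nearer to Acta2 and Tagln. All 15 were tested, 12 higher and 3 lower in NT4, with a median of 0.27. In 8 of the 15 both NT4 libraries were above both Control libraries, against 13.4% of all genes, and in 0 were both below (12.7%). Smooth muscle myosin Myh11 (16.1, 18.6, 21.1 and 24.1 CPM) and myosin light chain Myl9 (52.9, 46.3, 60.4 and 58.9 CPM) were among the 8, named after their values were seen. The 3 most abundant, Tpm1 (0.21, SE 0.21), Cald1 (0.22, SE 0.25) and the transcription factor Srf (−0.05, SE 0.18), had overlapping groups. Of this list 0 genes had an unadjusted p under 0.05 in edgeR's test, near the share of 1.99% over all genes.

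Other markers of the cells outside the follicle were compared. The 5 fibrillar collagens were all higher in NT4, with a median of 0.34, and all 5 were highest in NT4 1 (26.5% of all genes). Col1a1 was at 157.8 and 157.0 CPM in Control and 256.8 and 161.3 CPM in NT4, with NT4 1 high as for Bgn. Of 13 mesenchymal stroma markers, 12 were tested, 11 higher and 1 lower with a median of 0.32, and 10 were highest in NT4 1. Theca steroidogenic markers were all higher, 9 of 9 with a median of 0.30, and 3 of the 9 were highest in NT4 1. In 3 of the 9 both NT4 libraries were above both Control libraries (13.4% of all genes), and in 0 both were below (12.7%). Cyp17a1, the defining enzyme of theca cells, had 72.2 and 133.6 CPM in the Control pair and 133.9 and 173.3 CPM in the NT4 pair, so it was lowest in Control 1 where 7 of the 10 matrix markers were lowest in Control 2. RNA of the theca markers Cyp17a1 and Insl3 was thus detected in all 4 libraries, while the steroidogenic and the matrix markers ranked the libraries differently. Markers of blood vessels and macrophages also had medians above 0, at far lower summed levels. The 8 endothelial markers had a median of 0.19, with 6 higher and 2 lower. Both NT4 libraries lay above both Control libraries in 3 of the 8 (13.4% of all genes) and below in 1 (12.7%). Tek had an unadjusted p under 0.05 in edgeR's test (1.99% of all genes). Of the 8 macrophage markers 5 were tested, 3 higher and 2 lower (51.0% of all genes were higher) with a median of 0.52. The summed level of the macrophage markers was 2.89 and 2.28 CPM in the Control pair and 4.22 and 3.57 CPM in the NT4 pair. Even the most abundant of these markers had a mean of only 1.08 CPM. Their median deviation was 0.19, −0.71, 0.43 and 0.12 in the same order, highest in NT4 1 and lowest in Control 2 as for the 10 genes. That of the endothelial markers was 0.16, −0.29, 0.22 and 0.33, highest in NT4 2. The surface epithelium (0.22) and erythroid (0.36) lists were highest in Control 1. Whether such cells had a part in the values of the 10 genes was not tested. Several of the lists contain genes that GCs express too, Star, Cyp11a1, Hsd3b1 and Lhcgr among them.

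**Figure D4:**
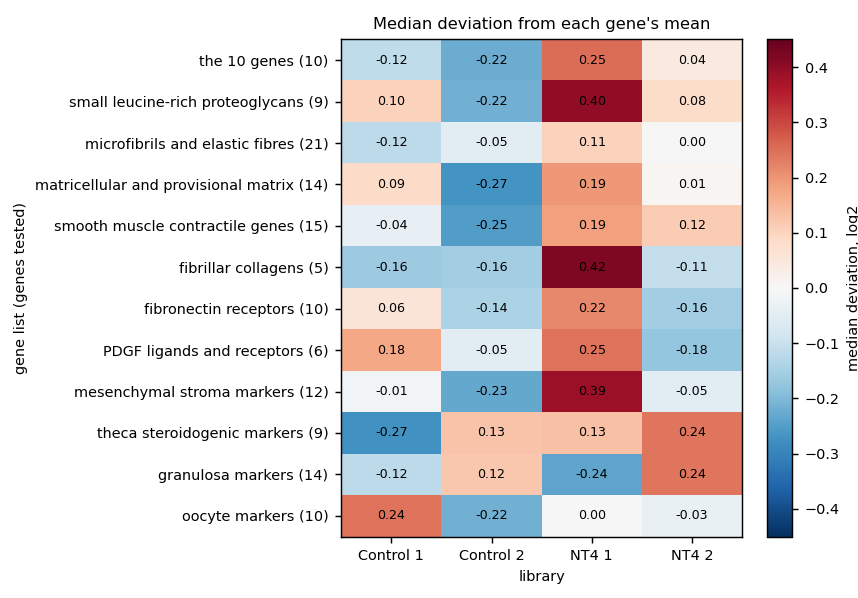
Median deviation of the genes of each list from their own means (log2) in each library, with the number of genes tested in brackets. Of the 12 lists shown, 9 are highest in NT4 1 (0.11 to 0.42), the granulosa and theca steroidogenic lists are highest in NT4 2 (0.24 each) and the oocyte list is highest in Control 1 (0.24). Not shown are the endothelial (highest in NT4 2, 0.33), surface epithelium (Control 1, 0.22), erythroid (Control 1, 0.36) and macrophage lists (NT4 1, 0.43).

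Genes with the most similar profile were found among 2144 other protein-coding genes whose mean level reached 10 CPM and whose range reached 0.5 on the log2 scale. The 5 nearest to the mean profile were Nlrc5, Lrrfip1, Vstm4, Gadd45g and Zfyve21, at distances of 0.025 to 0.047 over the 4 libraries. Nlrc5 was at 10.8 and 9.67 CPM in Control and 13.7 and 10.99 CPM in NT4, the order of libraries shown by Pdgfra. With 4 libraries, likeness of this kind is a description of these samples.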

How the data were processed

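Bulk RNA sequencing had been done on GCs in 2 Control and 2 NT4 libraries, grouped by their labels. The authors trimmed reads with Cutadapt, mapped them with HISAT2 to the mouse genome (mm10, Ensembl annotation) and assembled and estimated expression with StringTie and ballgown. What they deposited are expected counts, estimated whole numbers per gene, not normalized and not pooled. How they were made from StringTie output, and whether strand was used, is not given in the sources used here. They were taken as counts with no further rounding. The single-library files and the table of the series held identical counts in 4 of 4 libraries.

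Symbols were matched for 55144 of 55385 genes and coordinates taken from GENCODE M21 (GRCm38). Counts were tested in R 4.3.3 with edgeR 4.0.16 (quasi-likelihood test, TMM, default filter on low counts, group alone, two-sided, Benjamini-Hochberg over 19259 genes). The SE is the log2 fold change divided by the square root of the F statistic. Log2 CPM used a prior count of 2. Alternatives used DESeq2 1.42.0, limma 3.58.1, other scalings and filters, counts divided by 4, and leaving out each library. The procedure was tested on simulated data.

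The genes, lists and tests were chosen with earlier results of these data known. Named genes were the 10 markers, up to 3 of the most abundant genes per list, and the 5 protein-coding genes with the nearest profile. Genes named outside this rule were Dcn's and Ogn's cluster neighbours, genes that share reads with the markers, and Chad, Pdgfa, Pdgfrb, Thbs2, Myh11, Myl9, Inhbb, Amh, Cdh5, Tek, Krt8, Krt18, Col1a1, Cyp17a1, Insl3, Star, Cyp11a1, Hsd3b1 and Lhcgr, chosen after their values were seen, with some others at 0.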

Additional observations from a re-analysis of the deposited data

How the results depend on the processing

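In all 14 alternatives with a test, 0 of the 10 markers passed an adjusted p of 0.05 and 0 met the criterion of the study. Of 140 fold changes of the 10 markers under alternatives, 137 kept their direction and 3 reversed. The 3 came with a library left out, Fbn1 without NT4 1 and Postn without Control 1 and without NT4 2. The other settings refit the same 4 libraries, where a direction has little room to change. The count over all genes, 0, was 65 by DESeq2's Wald test, 10 when low counts were kept and 0 to 37 with a library left out (12 without Control 1, 37 without Control 2). Markers at an unadjusted p under 0.05, 3 in all, were 2 with library totals or the filter of 1 CPM, where Lum was lost, and 0 to 3 with a library left out. The median of 0.29 ranged from 0.27 to 0.30 under other settings and from 0.17 to 0.37 with a library left out. The count of markers whose groups did not overlap, 6 under every other scaling and filter, was 7 to 10 with a library left out, where groups separate more easily: of all genes 28.5% to 34.4% were then higher and 28.5% to 34.3% lower in NT4 without overlap. Without NT4 1 the 7 were 6 higher and 1 lower, where 34.4% and 34.3% of all genes were. The markers highest in 1 shared library were 8, in NT4 1 (26.5% of all genes). Without NT4 1 they were 6, in NT4 2 (34.4%). With another library left out they were 8 to 10, in NT4 1 (32.2% to 37.2%). Such a fit takes the spread of the single remaining library from the other group.

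With a library left out, log2 fold changes ranged from −0.050 to 0.33 for Fbn1, −0.52 to 0.33 for Postn, −0.26 to 0.30 for Omd, −0.17 to 0.27 for Ltbp3, −0.39 to 0.058 for Fbn2, −0.36 to 0.31 for Ccn2, −0.13 to 0.25 for Itgb1, −0.43 to 0.25 for Pdgfc, −0.54 to 0.34 for Pdgfb, −0.11 to 0.52 for Pdgfrl, −0.033 to 0.43 for Tpm1, −0.10 to 0.48 for Cald1 and −0.28 to 0.15 for Srf. Ccn2 was −0.018 in limma voom. The cause was not tested.

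The labels give both groups the same replicate numbers without stating a pairing. The study ran its culture groups in parallel, but 2 numbers cannot establish that a number marks an experiment. Across genes, libraries of the same number deviated from their groups together, with coefficients of 0.14 (Pearson) and 0.26 (Spearman) over 19259 genes. In the fit with a replicate block, 580 genes in place of 383 had an unadjusted p under 0.05, 4 markers among them (Acta2, Dcn, Lum and Tagln), the median of the markers was 0.29, 0 passed the adjustment and Ccn2 was −0.012. Among the 10 markers Postn had the fewest counts, 96 to 140 per library.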
